A study of Mus musculus with 2 samples.

Results

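Fggy, the gene of a carbohydrate kinase, is the next protein-coding gene above Jun on mouse chromosome 4, and its body was covered almost from end to end in the contact profile of the Jun promoter. The stretch described here runs from 500 to 900 kb on the higher-coordinate side of the Jun viewpoint, from position 95221073 to position 95621072 of chromosome 4 in mm9. Its members are the fragment ends that occur once in the genome, chosen by position alone. There were 1554 of them, out of 496746 such ends on chromosome 4 in the Jun library and 921359 in both libraries of the series.

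The profile comes from 4C-seq, which sequences circularised products of chromosome conformation capture, in primary bone marrow-derived macrophages (BMDMs) of C57BL/6 mice, untreated and on day 7 of differentiation in medium conditioned by L929 cells. The series holds 1 library with its viewpoint at the start site of Jun and 1 with its viewpoint at that of Ccl2, a chemokine gene on chromosome 11. Both were made in the same way: cells were fixed for 10 min in 2% formaldehyde, their chromatin was cut with DpnII, ligated, cut again with a second enzyme and ligated into circles, and 8 PCRs on 200 ng of template were pooled. No genetic change or stimulus separates the libraries, and the labels do not say how many mice gave the cells. A 4C profile holds no expression values, so the cell type was not checked against marker genes.

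As background, 4C-seq reads out which DNA was ligated to a chosen viewpoint in cross-linked nuclei, so that reads at a fragment end count its ligation to the viewpoint as amplified by PCR. Contact usually falls with distance along the chromosome, and chromosomes are folded into domains inside which contact is frequent and across whose borders it is rare. Jun is a component of the transcription factor AP-1, which macrophages use in their response to stimuli. Hook1, the next protein-coding gene beyond Fggy, encodes an adaptor between cargo and microtubules.

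The deposited profile carries no gene names, and the gene table used here is of GRCm38.p6 and not of mm9, so the place of Fggy was read from the spacing of restriction sites. DpnII cuts at GATC. The second enzyme, written as Csp61 in the labels, was taken to be Csp6I, which cuts at GTAC. Both motifs read the same on either strand. They were searched in the RefSeq promoter sequences of GRCm38.p6, which run from 250 bases before to 50 bases after a start site. Of 32851 such promoters, 48.0% hold a GATC and 35.8% a GTAC. Parts of the promoter sequences of Fggy and Hook1 are shown 5′ to 3′ on the plus strand, with these sites in capitals. They are the upstream Fggy start (chr4:95557257-95557506 in GRCm38.p6), the downstream Fggy start (chr4:95579171-95579436) and the Hook1 start (chr4:95967129-95967378).
Fggy upstream start: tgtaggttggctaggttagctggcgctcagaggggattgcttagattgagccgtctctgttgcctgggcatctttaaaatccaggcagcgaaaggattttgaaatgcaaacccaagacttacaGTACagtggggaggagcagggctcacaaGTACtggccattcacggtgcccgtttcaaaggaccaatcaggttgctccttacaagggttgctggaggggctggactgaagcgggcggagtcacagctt
Fggy downstream start: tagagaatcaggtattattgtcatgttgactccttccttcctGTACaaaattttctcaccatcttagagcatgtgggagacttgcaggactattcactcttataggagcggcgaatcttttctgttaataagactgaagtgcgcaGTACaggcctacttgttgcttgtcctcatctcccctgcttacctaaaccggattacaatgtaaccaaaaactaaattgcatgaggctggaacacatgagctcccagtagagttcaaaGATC
Hook1 start: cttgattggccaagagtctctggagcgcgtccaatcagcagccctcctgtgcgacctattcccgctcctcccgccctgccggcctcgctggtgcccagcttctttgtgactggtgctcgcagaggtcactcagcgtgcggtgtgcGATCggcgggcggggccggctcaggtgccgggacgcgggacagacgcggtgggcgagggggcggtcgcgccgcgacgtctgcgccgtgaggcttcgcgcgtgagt

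The downstream start of Fggy has a GATC that lies 117 bases beyond a GTAC, which in turn lies 103 bases beyond another GTAC. On the whole of chromosome 4, 1 fragment of the Jun profile has these distances: a DpnII fragment of 288 bp centred on position 95245969 in mm9, 524.896 kb from the viewpoint. Its ends held 225 reads (3′) and 101 reads (5′). The GATC of the Hook1 promoter is followed at 625 bp by that of the neighbouring gene 9530080O11Rik, with a GTAC 270 bases before the latter, and these lengths occur together in 1 fragment too, at position 95634273, 913.2 kb from the viewpoint. The ends of that fragment held 31 reads (3′) and 0 reads (5′). The upstream start of Fggy has no GATC, so it could not be placed in this way, and the same holds for Jun itself, whose promoter has neither site.

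The distance between the Fggy and Hook1 fragments differed by 6.5 bp between mm9 and GRCm38.p6, which is less than the 16 bp steps of the profile. Measured in GRCm38.p6 from the placed fragment, Fggy begins in the window from 500 to 520 kb and ends in that from 860 to 880 kb. By this placement 1445 of the 1554 members (93.0%) lie within Fggy, 12 before it and 97 after it, and Hook1 begins beyond the far border. Fggy is transcribed away from Jun, so its 5′ end is the near end.

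Of the 1554 members, 1304 had at least 1 read, which is 83.9% (exact 95% interval 82.0 to 85.7%), whereas 1.93% of all unique ends of chromosome 4 had one in the same library. The members held 228531 reads. This is 20.8% of the 1098887 reads on unique ends of chromosome 4 outside the 5 kb on either side of the viewpoint. All intervals given here are Clopper-Pearson intervals for counting error in 1 library, and since PCR copies were not marked with molecular identifiers, reads are not independent molecules. As each viewpoint has a single library, no test between samples was possible, and none is given. The Jun library held 1652054 reads on unique ends and the Ccl2 library 1248937.

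Reads were spread over many members. The lowest member had 0 reads, the median 62 and the highest 2136. The lower quartile was 9 reads and the upper 10% of members began at 410 reads. There were 250 members without a read, 28 with 1 read, 118 with 2 to 9, 506 with 10 to 99, 645 with 100 to under 1000 and 7 with 1000 or more. The 205 members with the most reads (13.2%) held 50% of the reads, and the 10 with the most held 5.50%. The high total of the stretch thus did not rest on a few ends.

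**Figure D1:**
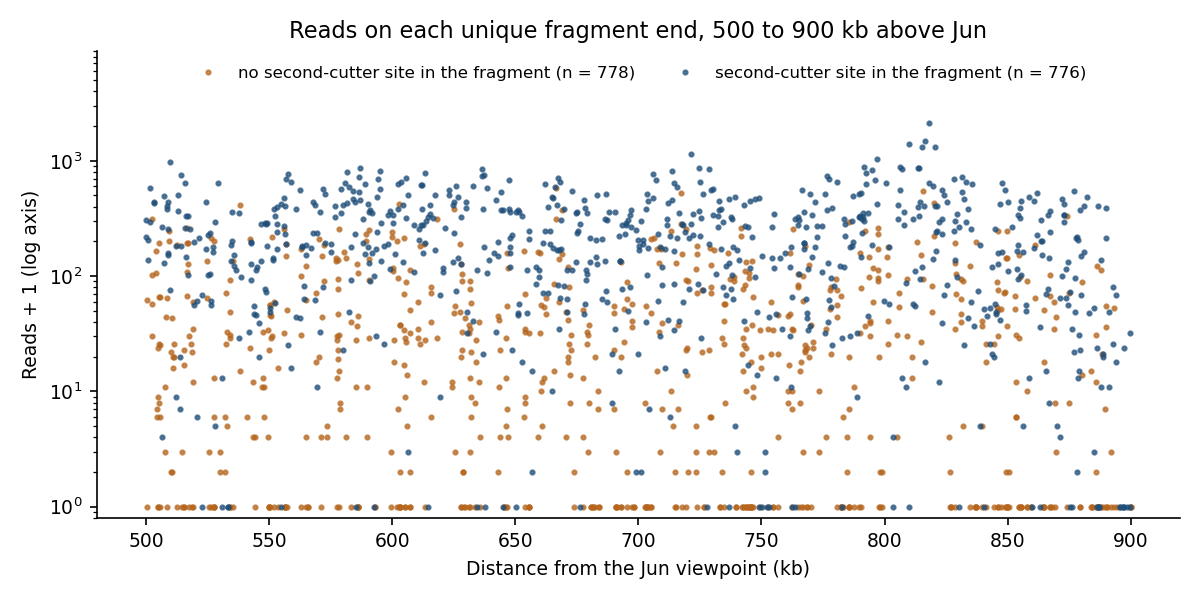
Reads + 1 (log axis) on each of the 1554 unique fragment ends against distance from the Jun viewpoint in kb, with blue points for ends of fragments that hold a site of the second cutter (776) and brown points for those that do not (778). Points fill the range from 10 to 1000 reads along the stretch, the highest point has 2136 reads near 818 kb, and the bottom row is the 250 ends without a read.

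Along the stretch, every window of 20 kb was covered. In all 20 windows at least 50% of the members had a read, against 0.693% of the 7361 windows of the chromosome with at least 10 unique ends. The share of covered members ran from 56.2% to 96.5% with a median of 86.2%, and 16 of the 20 windows reached 80%. Each window held 56 to 97 members. In steps of 5 kb, 79 of the 80 windows had at least 50% of their members covered, each on 9 to 32 members. Uncovered members were scattered: the longest run of neighbouring members without a read held 5 ends, and there were 3 runs of this length, at 680.72 to 682.368 kb, at 886.592 to 887.344 kb and at 894.368 to 897.008 kb. All 5 ends of the first run lay on fragments without a second-cutter site, but only 2 of the second run and 1 of the third did. On the lower side of Jun at the same distances the longest such run held 202 ends.

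The mean level changed little with distance over the 4 classes of 100 kb. Outwards from 500 kb they held 150.2, 143.9, 144.5 and 150.3 reads per member, with medians of 75, 58, 65 and 52 reads. The mean of the last class rests on a raised run from 805 to 825 kb that is described below: the other 289 members of this class held 105.0 reads each, with a median of 41. The shares of covered members in these classes were 86.0%, 86.8%, 84.2% and 78.1%. The outer part, from 700 kb outwards, held 147.1 reads per member and the inner part 147.0, a ratio of 1.00 that lay between 0.875 and 1.06 under the other settings tried. The lowest of these, 0.875, is the ratio without the raised run, a setting chosen after its values were seen. The medians were 65 reads in the inner and 58 in the outer part. The share of covered members was 86.4% (83.8 to 88.7%) in the inner and 81.5% (78.6 to 84.1%) in the outer part. The mean levels were thus alike, and the covered share was lower in the outer part by 4.94 percentage points. The raised run was picked for high reads and lies in the outer part only. Leaving it out therefore had to lower the outer mean, and no conclusion on distance is drawn from 0.875.

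No step marked the 5′ end of the gene. Closer to Jun, reads per end fell from 456.7 at 100 to 200 kb to 208.0 at 200 to 300 kb, 153.5 at 300 to 400 kb and 138.2 at 400 to 500 kb, so the class next to the stretch was at the level of the stretch. The share of covered ends was 85.9% (81.8 to 89.4%) from 400 to 500 kb and 86.0% (82.2 to 89.3%) from 500 to 600 kb, with intervals that overlap. The near border is not the start of the gene, since by the placement 12 members lie between them. In the 5 kb just outside the near border all 14 ends had a read, and in the 5 kb just inside it 19 of 22 had one. Reads per end there were 332.7 outside and 158.1 inside, and 21.4% and 63.6% of these ends lay on fragments without a second-cutter site, a feature that goes with low reads, as described below. Set against the reads expected from the fragment classes, also described below, they stood at 1.38 times outside and 1.26 times inside.

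**Figure D2:**
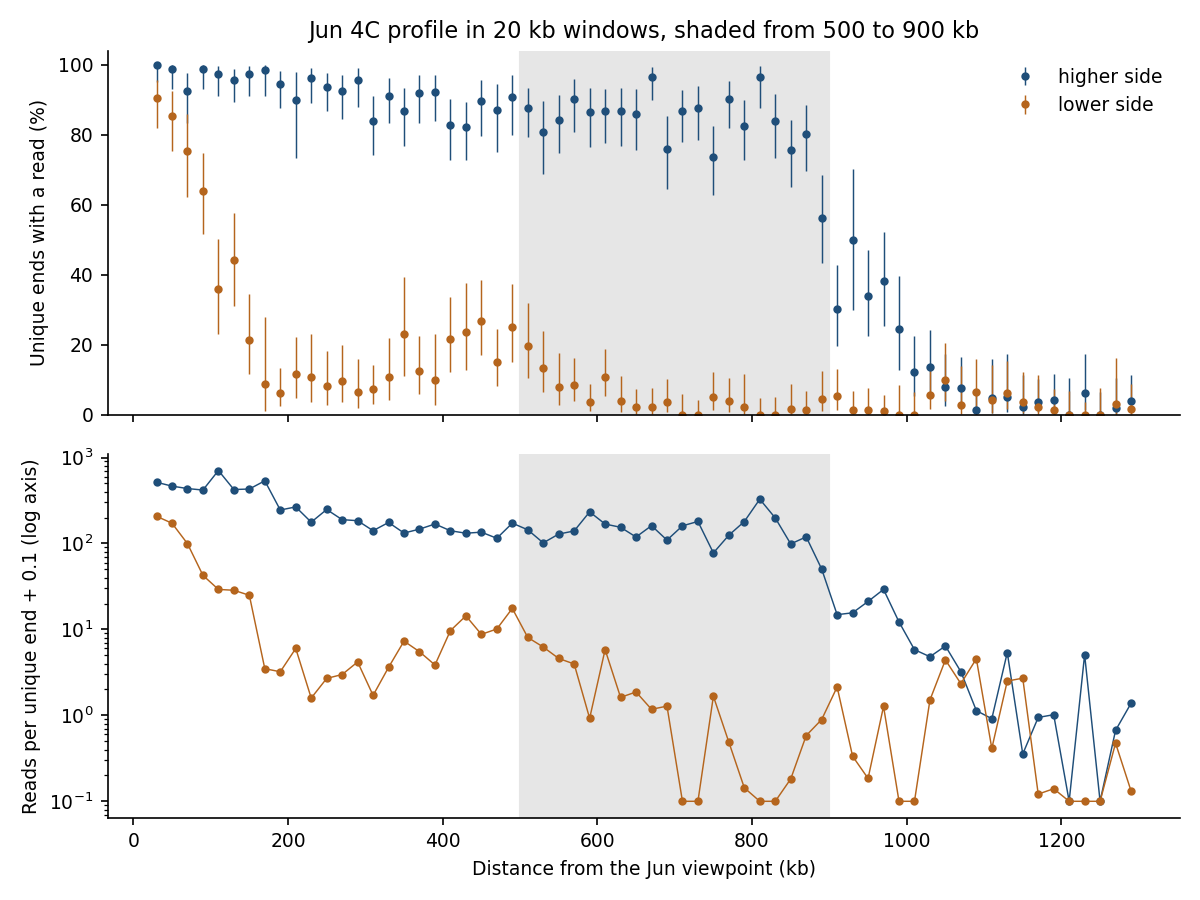
Share of unique ends with a read in percent (top, with exact 95% intervals) and reads per unique end + 0.1 (bottom, log axis) in 20 kb windows against distance from the Jun viewpoint in kb, for the higher side (blue) and the lower side (brown), with 500 to 900 kb shaded. On the higher side the shaded windows stay between 56.2% and 96.5%, and on the lower side between 0% and 19.7%.

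Reads fell near the far border, most clearly in the last window, beyond Fggy. From 840 to 860 kb, within the gene, 75.6% of members were covered with 98.7 reads per member. From 860 to 880 kb, the window in which Fggy ends, 80.3% of members were covered with 119.2 reads per member. A window further inside the gene, from 740 to 760 kb, was lower than both, with 73.5% covered and 77.5 reads per member. From 880 to 900 kb, beyond the gene, 56.2% (43.3 to 68.6%) were covered with 50.4 reads per member, the fewest of the 20 windows. The next windows, outside the stretch, had 30.3% and 14.7 reads per end at 900 to 920 kb and 13 of 26 ends covered with 15.5 reads per end at 920 to 940 kb. Within the last window the covered share fell near the outer end, while reads per member were already lower from 885 kb on. In steps of 5 kb from 880 kb on, 7 of 10, 17 of 27, 10 of 15 and 2 of 12 members were covered, and just outside the border 2 of 14. Reads per member in these steps were 121.1, 39.0, 60.3, 4.50 and 1.21. The 97 members placed after the end of Fggy were covered at 66.0% (55.7 to 75.3%) with 77.4 reads per member, and the 1445 within the gene at 85.1% (83.1 to 86.9%) with 151.4. These 97 include the 64 members of the last window, which had lower values than the 97 as a whole. The pooled values therefore do not place the fall at the end of the gene.

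By mean reads the highest window lay in the 3′ part of Fggy. From 800 to 820 kb (positions 95521073 to 95541072), 54 of 56 members had a read and the window held 327.4 reads per member, 2.23 times the level of the stretch as a whole. The windows that came next began at 580 kb, with 233.0 reads per member, and at 820 kb, with 197.9. By the median the order of the first 2 was turned: the window that begins at 580 kb had a median of 165 reads and the one that begins at 800 kb a median of 129.5. The lowest besides the last were 740 to 760 kb with 77.5 and 840 to 860 kb with 98.7 reads per member, so that a low window stood within 40 kb of the highest. Of the 20 windows, 16 lay within 1.5 times of the level of the stretch. Within and just after this window the level was uneven: from 800 to 825 kb the 5 kb steps held 136.6, 251.0, 342.5, 520.9 and 339.6 reads per member, and then 150.9 from 825 to 830 kb.

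The members with the most reads gathered there. The highest, a 5′ end at position 95539233 (818.16 kb), had 2136 reads, followed by 1486 reads at 95537569 (3′), 1390 at 95531169 (5′), 1322 at 95541505 (3′) and 1314 at 95536369 (3′). All 5 lay between 810 and 825 kb. The run of 5 kb steps at 1.5 times the level of the stretch or more that holds the highest step reached from 805 to 825 kb, and 6 of the 10 members with the most reads lay in it. This run was defined after its values were seen, from steps picked for high reads, so a higher level than the rest was built in. It held 3.99% of the members and 9.80% of the reads of the stretch. Its 62 members had a median of 235 reads, against 58 for the other members. Its 3′ ends (30) held 405.3 and its 5′ ends (32) 320.0 reads per member, so both kinds were high. Without its 5 highest ends it held 258.8 reads per member, against 138.2 for the rest of the stretch. Leaving out the 10 highest ends of the whole stretch, 5 of which lay in the window from 800 to 820 kb, lowered this window from 2.23 to 1.56 times the level of the stretch. It then came after the window from 580 to 600 kb, which holds none of the 10 and stood at 1.67 times.

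Members differed most by how close the second enzyme cut. Members on fragments that hold a second-cutter site (776) were covered at 94.7% (92.9 to 96.2%) with 244.7 reads per member and a median of 181. Those on fragments without one (778) were covered at 73.1% (69.9 to 76.2%) with 49.7 reads per member and a median of 19. On fragments with a site, reads per member were 169.0 at less than 50 bp from the end to the site, 262.2 at 50 to 100 bp, 406.1 at 100 to 200 bp, 282.5 at 200 to 400 bp and 54.5 at 400 to 800 bp. At 800 bp and more, 14 of 30 members were covered, with 2.03 reads per member. Reads thus peaked at 100 to 200 bp and were lowest at the longest distances. This distance sets the length of the PCR product, and its part in the differences between members was not tested beyond this comparison. Which deposited length belongs to which end was a choice made here, and the distance classes rest on it. On fragments with a site, the Spearman correlation of reads with distance was -0.316 as paired and 0.0759 with the distance from the other end.

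**Figure D3:**
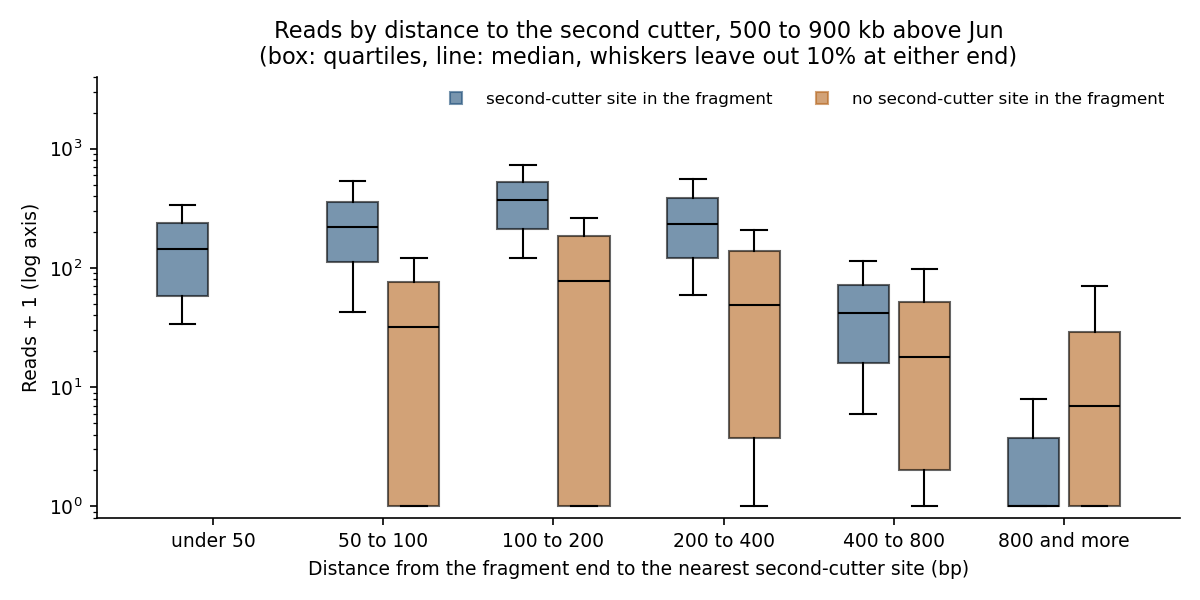
Reads + 1 (log axis) of the 1554 members by distance in bp from the fragment end to the nearest second-cutter site, for fragments with a site (blue) and without one (brown), with the median as a line, quartiles as a box and whiskers that leave out 10% of the members at either end. The blue boxes are highest at 100 to 200 bp and drop beyond 400 bp, and the brown medians lie below the blue ones in every class that holds both except the last.

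On fragments without a site the distance runs on into the next fragment. Reads per member again peaked at 100 to 200 bp, and in each class from 50 to 800 bp they were lower than on fragments with a site. They were 48.0 at 50 to 100 bp (17 members), 114.7 at 100 to 200 bp, 81.9 at 200 to 400 bp, 36.1 at 400 to 800 bp and 25.7 beyond. At 800 bp and more the order was turned, since 67.9% of the 249 members without a site in their fragment had a read, with a median of 6, against 46.7% of the 30 with one, with a median of 0. Short fragments were covered least: 54.3% of the 116 members on fragments under 50 bp had a read, and 91.9% of the 421 on fragments of 400 to 800 bp, but 99.1% and 27.1% of these lay on fragments without a second-cutter site. The kind of end made no difference of this size. The 3′ ends (769) and the 5′ ends (785) were both covered at 83.9%, with 151.3 and 142.9 reads per member.

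Fragments were mostly seen from both ends. In the stretch, 726 fragments had both ends unique, and both were covered in 539 (74.2%), only a single end in 142 (19.6%) and neither in 45 (6.20%). The remaining ends were not members. Of the 1796 ends of the 898 fragments, 68 had several copies in the genome and 174 had no value in the deposited profile. Fragments of the stretch had a median length of 299 bp, and those of the ends without a value 89 bp.

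Since windows differ in these fragment classes, each was also set against the reads expected from the classes of its own members. The expectation gives each member the mean of its class over the stretch, where the 11 classes combine the distance to the second cutter and the presence of a site in the fragment. The window from 800 to 820 kb stood at 2.11 times this expectation, and the second highest, from 620 to 640 kb, at 1.30. Without the 10 highest ends it stood at 1.70 and was still the highest, followed by 1.34 from 620 to 640 kb. The window that begins at 580 kb fell to 1.23 and the one that begins at 740 kb rose to 0.719, and 17 of the 20 windows lay within 1.5 times of the expectation. The last window stood at 0.355, the window before it at 0.652 and that from 840 to 860 kb at 0.692. All of these were below the window that begins at 740 kb, unlike in reads per member, where only the last was. Counted back from the far border in steps of 5 kb, the unbroken run of steps below the expectation reached to 835 kb. Its 13 steps lay between 0.0352 and 0.819 times, and where it begins was set by these same values. Of the 80 steps of the stretch, 41 lay below the expectation. The steps that stood highest were 815 to 820 kb at 3.08 times, 795 to 800 kb at 2.33 and 810 to 815 kb at 2.27. The high level from 800 to 820 kb and the low level of the last window thus changed little with the fragment classes taken into account. The window from 860 to 880 kb became lower, from 0.811 times the level of the stretch to 0.652 times the expectation. The low window from 740 to 760 kb came closer to the rest.

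**Figure D4:**
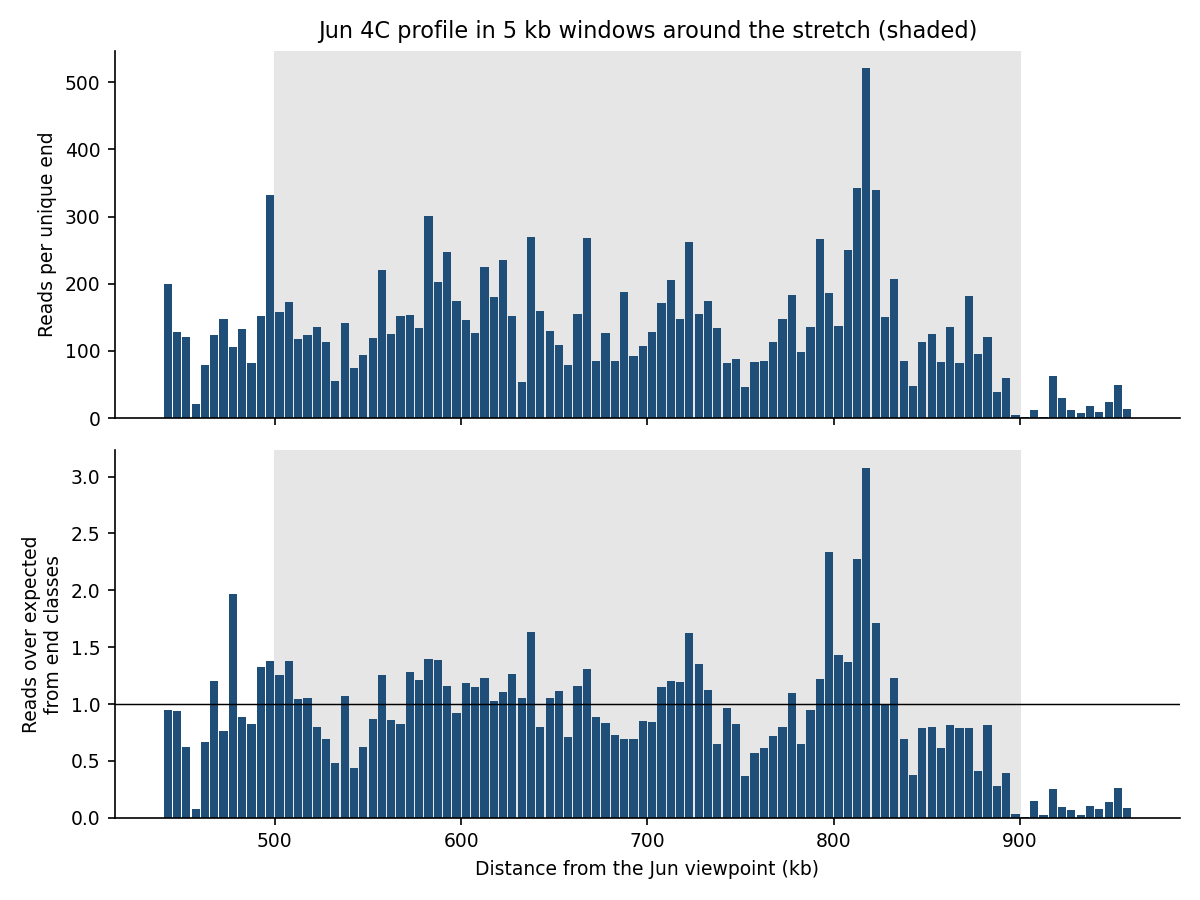
Reads per unique end (top) and reads over those expected from the fragment-end classes (bottom, line at 1) in 5 kb windows against distance from the Jun viewpoint in kb, with 500 to 900 kb shaded. The highest bar inside the stretch is at 815 to 820 kb in both panels, with 520.9 reads per end and 3.08 times the expectation, followed at the top by 810 to 815 kb (342.5 reads) and at the bottom by 795 to 800 kb (2.33 times), and the bars drop to 4.50 reads per end from 895 to 900 kb.

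The expectation also shows the placed promoter fragments at their own scale. The Fggy fragment at its downstream start held 225 reads where its class had a mean of 406.1 (3′ end) and 101 where it had 262.2 (5′ end), so both ends were below their class means. The Hook1 fragment held 31 and 0 reads where the class mean of the Fggy stretch was 282.5 for either end. Mysm1, which encodes a histone H2A deubiquitinase and lies below Jun, was placed by a DpnII fragment of 184 bp at position 94645873. Its spacing occurs at 2 places on the chromosome, 1 of them within 2 Mb of the viewpoint. This fragment lies 75.2 kb from the viewpoint on the lower side and holds no second-cutter site. Neither of its ends had a read, where the class means of the Fggy stretch were 114.7 (3′ end) and 25.7 (5′ end). In the window around it, from 60 to 80 kb on the lower side, 75.4% of ends were covered with 99.4 reads per end. The start site of Fggy that could be placed thus did not stand above the body of the gene, on the evidence of 1 fragment.

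At the same distances on the lower side of Jun, 71 of 1556 ends had a read, which is 4.56% (3.58 to 5.72%) against 83.9% in the Fggy stretch. Reads per end there were 1.87, and the ratio was 78.7, or 74.8 with fragment classes taken into account. Windows of the lower side reached at most 19.7% covered ends, below the lowest window of the stretch. The ratio rose to 124.6 without the 10 highest ends of each side. Covered ends alone differed less: their median was 99.5 reads in the stretch and 28 on the lower side. In the median of covered ends the ratio was 3.55, so the sides differed more in how many ends had a read than in the reads of those that had.

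Beyond the stretch, from 900 to 1300 kb, 11.5% (9.70 to 13.5%) of 1149 ends were covered with 6.07 reads per end, so the stretch stood 24.2 times higher in reads per end. On fragments with a second-cutter site the shares were 94.7% in the stretch and 17.9% beyond it, and on fragments without one 73.1% and 5.42%. Between Jun and the stretch, from 100 to 500 kb, 91.5% (90.0 to 92.9%) of 1500 ends were covered with 243.8 reads per end. The stretch held 0.603 times as many, and its covered share was lower on fragments with a site (94.7% against 98.6%) and on those without one (73.1% against 85.2%).

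From the Ccl2 viewpoint the same distances were covered far less, at 16.8% (15.0 to 18.7%) of 1610 ends on the higher side with 12.0 reads per end and at 2.27% (1.61 to 3.10%) of 1676 ends on the lower side with 1.39. These values lie on another chromosome and come from another library, so viewpoint, chromosome and library cannot be told apart in this comparison. The stretch held 20.8% of the reads of its library outside the viewpoint zone, against 2.14% and 0.259% for the Ccl2 stretches.

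**Figure D5:**
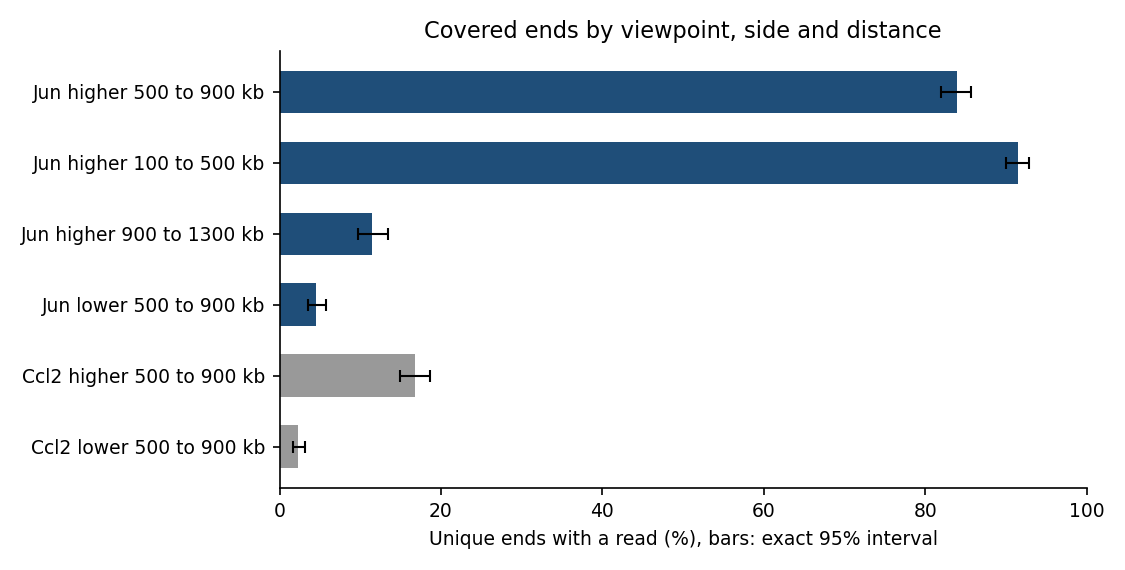
Share of unique ends with a read in percent, as bars from 0 with exact 95% intervals, for the Fggy stretch (Jun higher 500 to 900 kb), 3 other stretches of the Jun library (blue) and the same distances from Ccl2 (grey). The Fggy stretch stands at 83.9%, below the 91.5% of the stretch nearer to Jun and above the 2.27% to 16.8% of the other 4.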

How the data were processed

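The deposited values are estimated counts of reads per fragment end on the viewpoint chromosome, in 16 bp bins, not scaled to depth (72.8% of the Jun values between 0.05 and 10 at unique ends lie within 0.1 of a whole number). Per the submitters' processing notes the build is mm9. Aligner and read weighting: not given in the sources used here. Estimated counts were rounded to whole reads. Per the file headers, the other deposited columns are the multiplicity of each end and lengths in bp. The viewpoint is the fragment with the most reads on an end, at position 94721073 of chromosome 4 for Jun and 81848193 of chromosome 11 for Ccl2. Members, windows and lists were chosen with earlier results of these data known. Named were the 3 highest and 3 lowest windows of 20 kb, those at the borders, the 5 highest ends, the 3 longest empty runs, and Jun, Fggy, Hook1, Mysm1 and Cyp2j genes, which had no promoter fragment to place. The placements of Fggy and Hook1 and the fragment classes were added after seeing the data; that of Mysm1 followed the rule laid down first, 1 match within 2 Mb. Python 3.11.15, pandas 2.3.3 and scipy 1.17.1 were used.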

Additional observations from a re-analysis of the deposited data

Results flagged for a closer look

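Ends with several copies in the genome are no members of the Fggy stretch and enter 1 alternative setting only, but they carried reads there. Of 68 such ends, 55 had a read, which is 80.9% (exact 95% interval 69.5 to 89.4%). They held 7840 reads, or 115.3 per end, and their median multiplicity was 3. At the same distances on the lower side 10 of 171 such ends had a read (5.85%), and on the whole chromosome 3.14%.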

How the results depend on the processing

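Of 109 alternative values, 95 kept within their interval, or within 1.5 times where there is none, and 14 moved. The covered share of members was 74.5% with at least 10 reads asked of an end, 89.3% on fragments of at least 200 bp and 94.7% on fragments with a second-cutter site, where reads per member rose to 244.7. The share of the library's reads, whose interval is narrow, was 20.9% with at least 10 reads, 19.7% with ends of every multiplicity, 19.2% with borders 20 kb inwards, 21.7% with borders 20 kb outwards, 19.9% without the 10 highest ends, 21.7% on fragments of at least 200 bp, 21.4% on fragments with a second-cutter site, 22.6% with reads limited to the 95th percentile and 22.3% with a viewpoint zone of 20 kb. The ratio to the lower side moved only without the 10 highest ends, to 124.6. With windows of 10 kb, 39 of 40 had at least 50% of ends covered, with windows of 40 kb all 10, and with borders 20 kb outwards 21 of 22. The ratio to 100 to 500 kb lay between 0.585 and 0.677 and that to 900 to 1300 kb between 22.9 and 33.7. No paired analysis was possible because each viewpoint has 1 library. A single library limits every value, and differences between cultures were not measured.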
